A study of Caenorhabditis elegans with 6 samples.

Results

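The 10 genes described here act in the last steps of egg formation in Caenorhabditis elegans, a free-living nematode: oma-1, oma-2, puf-5, rme-2, egg-1, egg-2, chs-1, cbd-1, cpg-1 and cpg-2. They were chosen by name, with earlier results of these data known. All 10 were found by their sequence names among the 46589 genes of the deposited tables. The libraries came from whole wild-type (WT) hermaphrodites sampled as young adults at 20 °C. In the tryptophan group the animals were fed 5 mM tryptophan, an essential amino acid, for 36 h starting at the L4 stage, the last larval stage (3 libraries). In the control group they were taken 36 h after L4 (3 libraries), with no tryptophan feeding named in the labels. Nothing in the labels says whether libraries of a group came from separate cultures, so p-values measure the spread between these libraries, which may be technical.

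Oocytes of C. elegans grow along the gonad arm while they take up yolk made in the intestine, and they arrest in meiosis until a signal from sperm, carried by major sperm protein, lets the oldest oocyte mature. OMA-1 and OMA-2 are CCCH zinc finger proteins that bind RNA and are needed, redundantly, for that maturation. After fertilisation the eggshell is built in layers, with an outer vitelline layer, a chitin layer and an inner layer of chondroitin proteoglycan. The mRNAs for much of this machinery are made in the growing oocyte, so whole-animal RNA from adult hermaphrodites holds them at high levels. In such RNA, fewer oocytes and less of a transcript in each oocyte cannot be told apart.

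Values are FPKM, fragments per kilobase of gene model, scaled to library size, as the authors deposited them. The depth was estimated at 14.5 M to 24.7 M (mega) counted units per library, and 13511 genes with a mean of at least 1 FPKM over the 6 libraries were tested, all 10 members among them. Tryptophan library 1 and control library 1 stood apart from the rest. Their correlation with each other across the tested genes was 0.578 on the log2 scale, against 0.960 to 0.980 among the other 4 libraries. Results are therefore given over all 6 libraries and over libraries 2 and 3 of each group. By this estimate, the member value that rests on the fewest counted units was that of egg-2 in tryptophan library 1. It stood for about 981 of them, a counting error of about 3.19%. Counting error was thus small beside the differences between tryptophan library 1 and control library 1. This does not hold for every pair of libraries, as oma-1 was at 106.37 and 106.40 FPKM in control libraries 2 and 3.

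All 10 genes shared a pattern across the libraries that separated single libraries more than the 2 groups. Tryptophan library 1 was the lowest for 7 members (35.2% of all tested genes) and tryptophan library 3 for the other 3, namely egg-2, puf-5 and rme-2. With each library scaled to the same sum of FPKM, the TPM scale, tryptophan library 1 was the lowest for all 10. That library had the largest sum of FPKM, so this scaling lowers every gene in it the most. The share of all tested genes lowest there on the TPM scale was not computed. Control library 1 was the highest library for 10 of 10 members, as it was for 37.1% of all tested genes. The median member stood at 56.1, 163 and 98.2 FPKM in tryptophan libraries 1 to 3, against 621, 139 and 153 FPKM in control libraries 1 to 3. The summed level of the 10 genes was 0.0627%, 0.286% and 0.189% of all FPKM in tryptophan libraries 1 to 3, against 0.748%, 0.235% and 0.221% in control libraries 1 to 3.

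**Figure D1:**
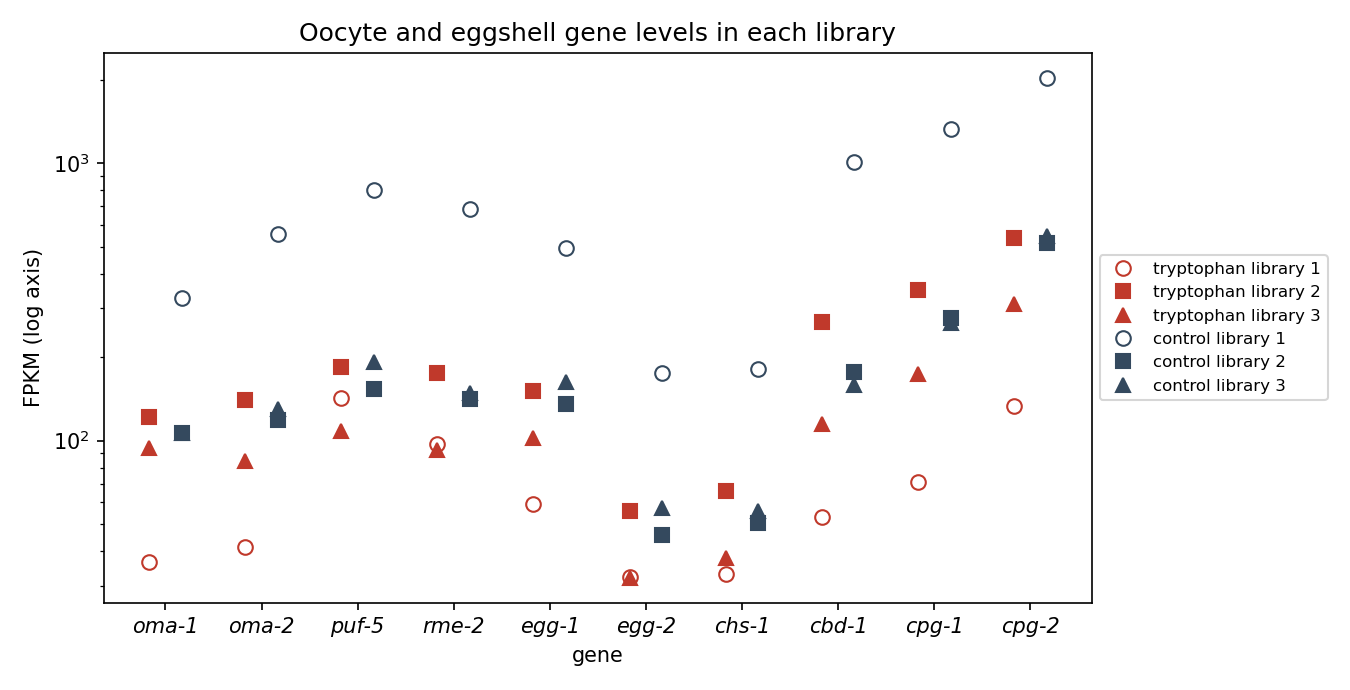
FPKM of the 10 genes (log axis) in each of the 6 libraries, with the tryptophan libraries left of the control libraries and open circles for library 1 of each group. Control library 1 is the highest point for every gene, and tryptophan library 2 lies among control libraries 2 and 3 or above them.

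No member passed the test between the groups. Over all 6 libraries, 0 of 10 members had a limma adjusted p under 0.05, against 0% of the 13511 genes tested, and 0 had an unadjusted p under 0.05, against 158 of all tested genes. The groups overlapped for every member, whereas 8.3% of all tested genes had groups that did not overlap. All 10 log2 fold changes (tryptophan minus control, on log2(FPKM + 1)) were negative, with a median of -1.12, a range of -1.56 to -0.87 and a limma adjusted p of 0.802 for each. The median over all tested genes was -0.03. In libraries 2 and 3 the members' median was -0.19, with 8 negative and 2 positive values and a range of -0.38 to 0.07. There, too, 0 members passed (limma adjusted p from 0.566 to 0.989), against 0.503% of all tested genes, and the groups overlapped for all 10, against 46.4% of tested genes whose groups did not overlap.

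**Figure D2:**
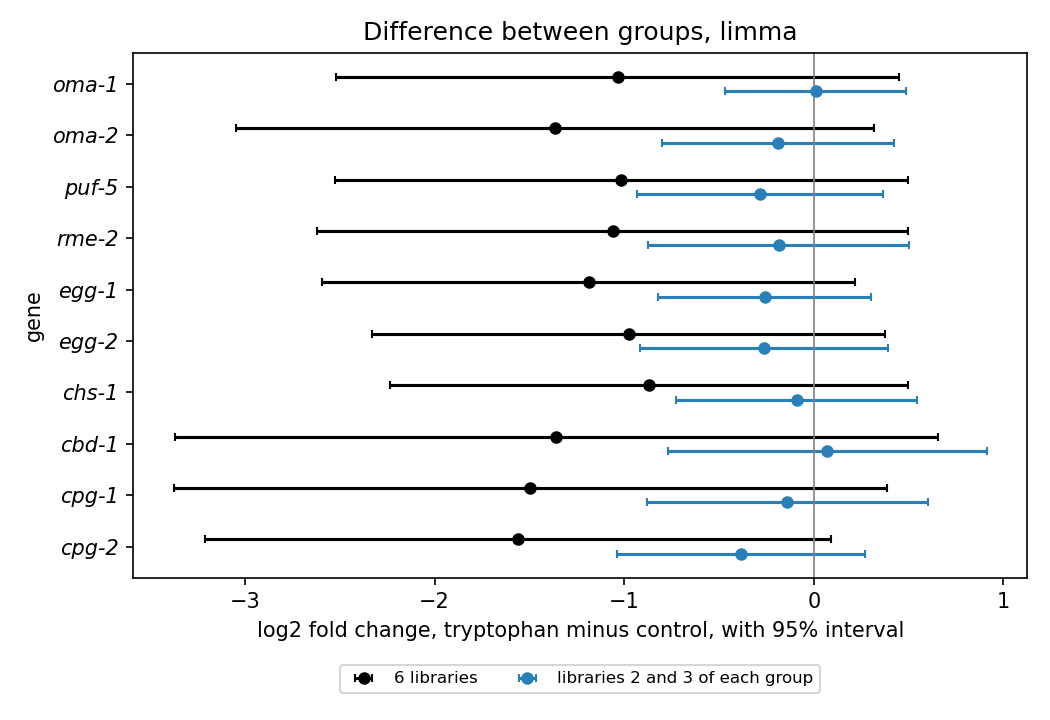
Log2 fold change of each gene, tryptophan minus control, with its 95% interval from limma, over all 6 libraries (black) and over libraries 2 and 3 of each group (blue). Every interval includes 0, and the black points lie between -1.56 and -0.87 while the blue points lie between -0.38 and 0.07.

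The maturation regulators are described first. oma-1 (C09G9.6, WBcel235 chromosome IV, 8888976 to 8890999, plus strand, 6 exons) had 36.6, 122 and 94.3 FPKM in tryptophan libraries 1 to 3, against 327, 106 and 106 FPKM in control libraries 1 to 3. Tryptophan library 2 was above control libraries 2 and 3 and tryptophan library 3 below them, so the groups overlapped. The means were 84.2 ± 43.5 FPKM with tryptophan and 180.0 ± 128 FPKM in control (SD, n = 3 each), a log2 fold change of -1.04 (SE 0.63, 95% interval -2.52 to 0.45). In libraries 2 and 3 it was 0.01 (interval -0.47 to 0.49), the narrowest of the 10 intervals.

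Its paralog oma-2 (ZC513.6, chromosome V, 8029439 to 8031214, plus strand, 6 exons) had 41.4, 141 and 84.2 FPKM in tryptophan libraries 1 to 3, against 556, 118.7 and 130.0 FPKM in control libraries 1 to 3. Control library 1 was the high one again, and tryptophan library 1 the low one. The log2 fold change was -1.36 (SE 0.72) over 6 libraries and -0.19 (SE 0.26) in libraries 2 and 3. oma-1 stood at 0.884, 0.866 and 1.12 times oma-2 in tryptophan libraries 1 to 3, against 0.589, 0.896 and 0.819 times in control libraries 1 to 3. The log2 ratio of the pair differed by 0.33 between the groups, which did not exceed the spread (exact two-sided permutation test, p = 0.30, where 3 against 3 libraries cannot go below 0.10; adjusted p = 0.80 over the 3 paralog pairs compared here). It was 0.15 without control library 1, 0.21 without tryptophan library 3 and 0.20 in libraries 2 and 3.

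puf-5 (F54C9.8, chromosome II, 8575541 to 8577787, plus strand, 5 exons) encodes a Pumilio-family protein that binds mRNAs in growing oocytes. It had 142, 184 and 109 FPKM in tryptophan libraries 1 to 3, against 797, 154 and 192 FPKM in control libraries 1 to 3. Unlike most members it was lower in tryptophan library 3 than in tryptophan library 1, where it was the most abundant of the 10 genes, ahead of cpg-2. Its log2 fold change was -1.02 (SE 0.65) over 6 libraries and -0.28 (SE 0.28) in libraries 2 and 3.

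rme-2 (T11F8.3, chromosome IV, 5470026 to 5473174, plus strand, 7 exons) encodes the oocyte's yolk receptor, of the low density lipoprotein receptor superfamily. It had 97.0, 175 and 92.8 FPKM in tryptophan libraries 1 to 3, against 686, 142 and 149 FPKM in control libraries 1 to 3. Tryptophan library 2 was the second highest library and tryptophan library 3 the lowest. The log2 fold change was -1.06 (SE 0.67) over 6 libraries and -0.19 (SE 0.30) in libraries 2 and 3.

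EGG-1 and EGG-2 are transmembrane proteins of the oocyte surface with repeats like those of the low density lipoprotein receptor, and are needed for fertilisation. egg-1 (B0244.8, chromosome III, 5728180 to 5730159, plus strand, 5 exons) had 59.1, 151 and 102 FPKM in tryptophan libraries 1 to 3, against 495, 136 and 163 FPKM in control libraries 1 to 3. egg-2 (R01H2.3, chromosome III, 7058527 to 7060583, minus strand, 5 exons) was lower, with 32.3, 55.9 and 32.1 FPKM in tryptophan libraries 1 to 3, against 176, 45.7 and 57.1 FPKM in control libraries 1 to 3. Both had their highest value in control library 1, and for both tryptophan library 2 lay between control libraries 2 and 3.

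The log2 fold changes over 6 libraries were -1.19 (SE 0.60) for egg-1 and -0.98 (SE 0.58) for egg-2, and -0.26 for both in libraries 2 and 3. egg-1 stood at 1.83, 2.70 and 3.18 times egg-2 in tryptophan libraries 1 to 3, against 2.82, 2.97 and 2.86 times in control libraries 1 to 3. The ratio was steady over the controls and spread more with tryptophan, and the log2 ratio differed by -0.21 between the groups (exact two-sided permutation test, p = 0.70; adjusted p = 0.80). These are close paralogs, and how reads were divided between them is not given in the sources used here.

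chs-1 (T25G3.2, chromosome I, 7554855 to 7559916, plus strand, 10 exons) encodes the chitin synthase that makes the chitin of the eggshell. It had 33.0, 65.9 and 37.8 FPKM in tryptophan libraries 1 to 3, against 182, 50.6 and 56.0 FPKM in control libraries 1 to 3. Together with egg-2 it was the least abundant member in every library, and its log2 fold change over 6 libraries was the smallest in size of the members, at -0.87 (SE 0.58). In libraries 2 and 3 it was -0.09 (SE 0.27). Its gene model shares 78 bases on the same strand with T25G3.3, a gene at 63.1 to 107 FPKM, so reads in that stretch cannot be assigned from the deposited values.

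cbd-1 (H02I12.1, chromosome IV, 11372991 to 11377627, plus strand, 10 exons) encodes a chitin-binding protein of the vitelline layer, the outermost layer of the eggshell. It had 53.1, 267 and 115.04 FPKM in tryptophan libraries 1 to 3, against 1006, 176 and 158 FPKM in control libraries 1 to 3. It spanned the widest range of the members, with tryptophan library 1 at 0.0528 times control library 1, and tryptophan library 2 at 2.33 times tryptophan library 3. The log2 fold change was -1.36 (SE 0.86) over 6 libraries and 0.07 (SE 0.36, interval -0.77 to 0.91) in libraries 2 and 3.

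CPG-1 and CPG-2 are chondroitin proteoglycan core proteins that also bind chitin and form the inner eggshell layer. cpg-1 (C07G2.1, chromosome III, 4489359 to 4491392, plus strand, 4 exons) had 70.7, 349 and 173 FPKM in tryptophan libraries 1 to 3, against 1325, 278 and 265 FPKM in control libraries 1 to 3. cpg-2 (B0280.5, chromosome III, 7102092 to 7103990, minus strand, 5 exons) had 134, 536 and 310.1 FPKM in tryptophan libraries 1 to 3, against 2027, 518 and 547 FPKM in control libraries 1 to 3. cpg-2 was the most abundant member in every library other than tryptophan library 1, and it ranked between the 92.1 and the 99.3 percentile of tested genes.

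cpg-2 also had the largest log2 fold change in size, -1.56 (SE 0.70, 95% interval -3.21 to 0.09), with -0.38 (SE 0.28) in libraries 2 and 3. For cpg-1 the values were -1.50 (SE 0.80) and -0.14 (SE 0.32). cpg-1 stood at 0.529, 0.652 and 0.559 times cpg-2 in tryptophan libraries 1 to 3, against 0.654, 0.537 and 0.485 times in control libraries 1 to 3. The log2 ratio differed by 0.06 between the groups (exact two-sided permutation test, p = 0.80; adjusted p = 0.80).

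**Figure D3:**
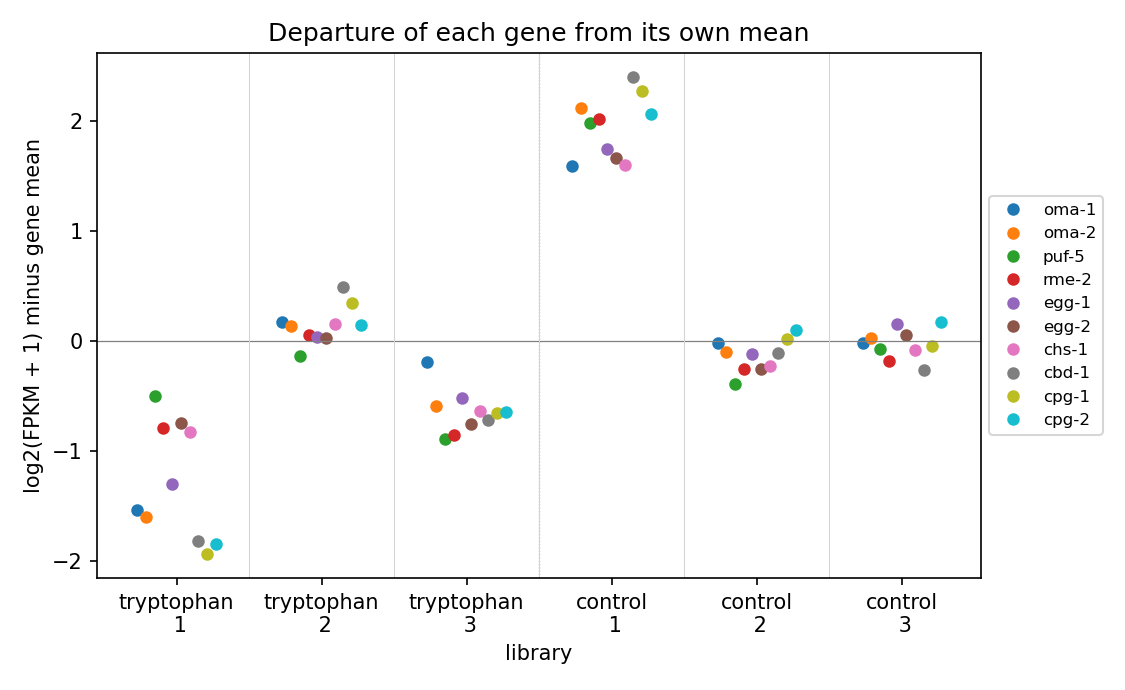
Each gene's log2(FPKM + 1) minus its own mean over the 6 libraries, tryptophan libraries on the left. The genes lie close together in control libraries 2 and 3 and apart in tryptophan library 1, where puf-5 is at -0.50 and cpg-1 at -1.94.

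In the departure of each gene from its own mean, the members differed most from each other in tryptophan library 1. In level they lay closest together there, at 32.3 to 142 FPKM, against 176 to 2027 FPKM in control library 1. Tryptophan library 1 stood at 0.0528, 0.0534 and 0.0660 times control library 1 for cbd-1, cpg-1 and cpg-2, the genes for chitin-binding eggshell proteins, and at 0.0744 and 0.112 times for oma-2 and oma-1. The ratio was 0.1195 for egg-1, 0.141 for rme-2, 0.178 for puf-5, 0.182 for chs-1 and 0.184 for egg-2. Set against the summed FPKM of the 10 genes, puf-5 made up 20.3% in tryptophan library 1 and 8.98% and 9.44% in tryptophan libraries 2 and 3, against 8.94% to 10.6% in the controls. rme-2 made up 13.9% in tryptophan library 1, against 8.06% to 9.06% in the other 5 libraries. cpg-1 was at 10.1% in tryptophan library 1, against 14.5% to 17.5% elsewhere. These shares rest on 1 library and were not tested.

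**Figure D4:**
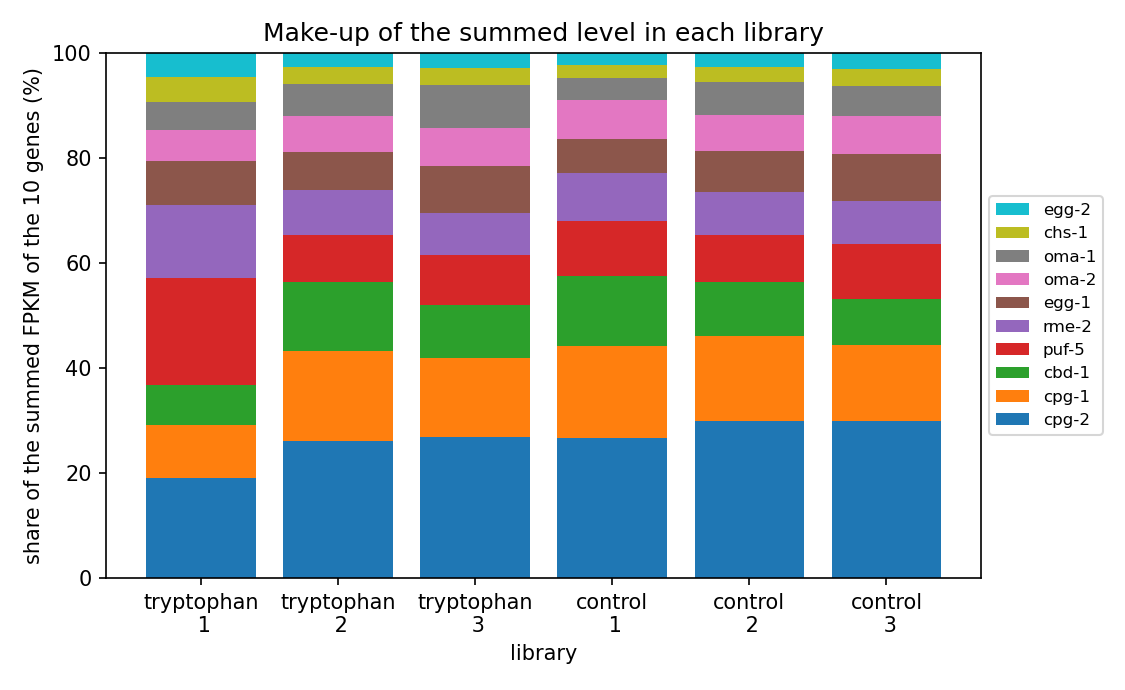
Share of each gene in the summed FPKM of the 10 genes, in percent, for each library, tryptophan libraries on the left. In tryptophan library 1 the share of puf-5 is 20.3% and that of cpg-2 19.1%, while cpg-2 holds at least 26.2% in each of the other 5 libraries.

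Within libraries 2 and 3 the tryptophan libraries lay on either side of the controls. Tryptophan library 2 exceeded tryptophan library 3 for 10 of 10 members, by 1.29 times for oma-1 up to 2.33 times for cbd-1. Tryptophan library 3 was below both control libraries 2 and 3 for 10 members, and tryptophan library 2 was above both for 6. On the TPM scale these counts were 9 and 10. The share of all tested genes with each of these orders was not computed. The counts therefore describe the members and do not set them apart from other genes. Control libraries 2 and 3 differed little, with control library 2 at 0.800 times (egg-2, puf-5) to 1.11 times (cbd-1) control library 3. The spread between tryptophan libraries 2 and 3 was thus wider than between the matching controls, and the group difference did not exceed it for any member.

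Other genes of the eggshell and of egg activation shared the high control library 1. All 11 tested genes of that list had negative log2 fold changes over 6 libraries (median -1.05), and 5 of 11 in libraries 2 and 3 (median 0.00). None passed the test over all genes in either fit (0 of 11 in each), and 11 of 11 were highest in control library 1. perm-4, for a vitelline layer protein, had 59.0, 144 and 194 FPKM in tryptophan libraries 1 to 3, against 711, 229.5 and 117 FPKM in control libraries 1 to 3. egg-3, for a pseudo-phosphatase of egg activation, had 13.2, 49.6 and 34.9 FPKM with tryptophan, against 163, 42.4 and 47.4 FPKM in control. cpg-3, for another chondroitin proteoglycan, had 248 FPKM in tryptophan library 1, above tryptophan libraries 2 and 3 (138 and 123 FPKM) and control libraries 2 and 3 (155 and 200.2 FPKM), unlike cpg-1 and cpg-2. cpg-3 was picked out after its values were seen.

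The genes that make chondroitin, the sugar chain carried by the CPG proteins, had a smaller median difference. All 9 had negative log2 fold changes over 6 libraries (median -0.63) and 3 of 9 in libraries 2 and 3 (median 0.12), and 0 passed in either fit. The values with the smallest p were -1.39 (SE 0.94) for sqv-6, a xylosyltransferase gene, and -1.11 (SE 0.64) for sqv-3, a galactosyltransferase gene. sqv-3 had 2.94, 12.1 and 13.8 FPKM with tryptophan, against 31.8, 13.995 and 14.6 FPKM in control, so its groups did not overlap. This was the case, in the lower direction, for 4.32% of all tested genes.

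Among 21 other regulators of meiotic maturation, 21 had negative log2 fold changes over 6 libraries (median -0.95) and 12 in libraries 2 and 3 (median -0.09), and 0 passed in either fit. cyb-3, a cyclin B gene, had 50.03, 251 and 169 FPKM in tryptophan libraries 1 to 3, against 1066, 212 and 233 FPKM in control libraries 1 to 3. mei-2, for a subunit of the katanin complex of the meiotic spindle, had a log2 fold change of -1.21 (SE 0.64) over 6 libraries and -0.16 (SE 0.22) in libraries 2 and 3.

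Of 24 other RNA-binding proteins of the germline and oocyte, 24 had negative log2 fold changes over 6 libraries (23 with quantile normalization or on the TPM scale; median -1.25) and 13 in libraries 2 and 3 (median -0.02), with 0 passing in either fit. puf-3, a relative of puf-5, had 32.8, 145 and 97.1 FPKM with tryptophan, against 440.1, 136 and 135 FPKM in control. cey-2, for a cold-shock domain protein of the germline, had 629.9, 1055 and 878 FPKM in tryptophan libraries 1 to 3, against 3168, 1156 and 1326 FPKM in control libraries 1 to 3. Its groups did not overlap, with a log2 fold change of -1.02 (SE 0.47) and -0.36 (SE 0.23) in libraries 2 and 3.

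The yolk proteins, the ligands of RME-2, varied more than their receptor and turned direction. All 6 vit genes had negative log2 fold changes over 6 libraries (median -1.13) and all 6 had positive ones in libraries 2 and 3 (median 1.10), with 0 passing in either fit, while rme-2 stayed negative at -0.19 there. Summed over the 6 genes, yolk mRNA stood at 406, 3951 and 1885 FPKM in tryptophan libraries 1 to 3, against 19564, 1865 and 946 FPKM in control libraries 1 to 3. The 12 genes of endocytosis and membrane recycling all had negative values over 6 libraries (median -0.61) and 3 of 12 in libraries 2 and 3 (median 0.26), with 0 passing. Of these, rab-5 had a log2 fold change of -0.99 (SE 0.55) over 6 libraries. In libraries 2 and 3 rab-5 was at -0.18 (SE 0.18), among the 3 negative values, while 9 of the 12 genes were positive there.

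**Figure D5:**
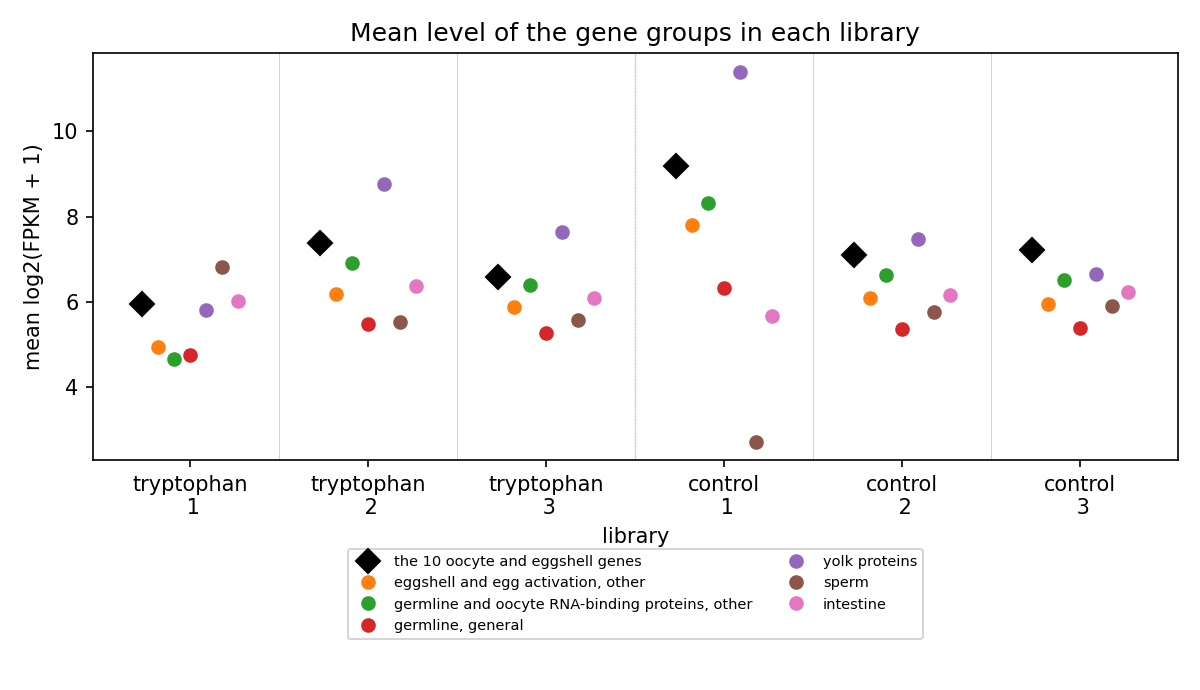
Mean log2(FPKM + 1) over the tested genes of each group in every library, tryptophan libraries on the left. The 10 oocyte and eggshell genes (black diamonds) are at 5.95 in tryptophan library 1 and 9.18 in control library 1, where the sperm genes are at 6.83 and 2.72.

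In the 2 libraries that stood apart, most germline markers were low in tryptophan library 1 and high in control library 1, like the members. Most sperm genes were the reverse. Of 16 germline markers, 12 were lowest in tryptophan library 1 and 15 highest in control library 1. Of 50 sperm genes, 42 were highest in tryptophan library 1 and 48 lowest in control library 1. The other 2, spe-39 and spe-44, were highest in control library 1. General germline markers (16 tested, 15 negative over 6 libraries, 8 in libraries 2 and 3) summed to 719.8, 995 and 827 FPKM in tryptophan libraries 1 to 3, against 1845, 942 and 982 FPKM in control libraries 1 to 3. Sperm genes (50 tested) had 48 positive log2 fold changes over 6 libraries and 13 in libraries 2 and 3. In libraries 2 and 3 the sperm genes thus had mostly negative values (median -0.30), as the members did (median -0.19). The sperm genes summed to 22526, 5919 and 6103 FPKM in tryptophan libraries 1 to 3, against 606, 7659 and 8906 FPKM in control libraries 1 to 3. In neither list was a gene at 0 in every library. The part of the germline and sperm markers in the values of the 10 genes was not tested. Intestinal markers, with 10 of 10 tested, summed to 2804 to 5119 FPKM with tryptophan and 4012 to 4104 FPKM in control, and 7 of the 10 were lowest in tryptophan library 1. Somatic markers also differed in the libraries that stood apart. Of the markers of body wall muscle 6 of 8, of pharynx 4 of 5 and of neurons 5 of 9 were lowest in tryptophan library 1. Of the hypodermis markers 5 of 7 were lowest in control library 1, whereas the other 2, col-19 and lin-26, were highest there. col-19, a cuticle collagen gene, had 740.3 FPKM in tryptophan library 1 and 2396 FPKM in control library 1. lin-26 had 4.22 FPKM in tryptophan library 1 and 78.0 FPKM in control library 1. The part of these somatic markers in the values of the 10 genes was not tested. The mean log2 level of the hypodermis markers was 5.36, 5.94 and 5.83 in tryptophan libraries 1 to 3, against 4.20, 6.12 and 5.99 in control libraries 1 to 3. The markers of hypodermis, body wall muscle, pharynx and neurons each summed to at least 108.9 FPKM in every library. Markers of the gonadal sheath and spermatheca (10 tested, 5 negative over 6 libraries and 5 in libraries 2 and 3) summed to 175.7 to 200.9 FPKM with tryptophan and 155 to 223 FPKM in control. Of all these marker lists 0 genes passed the test in either fit. Of 10 early embryonic genes only nhr-23 was abundant enough to test, and tbx-35 was listed at 0 in every library. Every other gene of that list was highest in control library 1, most at low values. nhr-23 had 38.1 FPKM there and 0.903 FPKM in tryptophan library 1. pes-10 had 2.56 FPKM in control library 1 and 0 in the rest. sdz-38 differed little between control libraries 1 and 2 (0.546 and 0.502 FPKM). The part of early embryonic transcripts in the values of the 10 members was not tested.

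The genes outside the set with the most similar pattern were found by the root mean square difference of their centred log2 profile from the members' median profile over the 6 libraries. The nearest was mcm-7, a subunit gene of the replicative helicase, at 0.0799. Its values were 30.9, 95.6 and 56.7 FPKM with tryptophan, against 316, 85.7 and 79.5 FPKM in control. ZK973.9, Y69H2.3, clec-88 (a C-type lectin gene), unc-71 (an ADAM family gene) and mom-2 (a Wnt gene) followed at 0.1204 to 0.132. The median over all tested genes was 1.13 and the 1% quantile 0.290. The 6 genes were picked as the nearest, so their place below that median was fixed by the choice. Of the members, oma-2 was nearest to the median profile at 0.0954 and puf-5 farthest at 0.418. Of all tested genes, members included, 582 were at least as near as puf-5. The members help to make that profile, so these distances are a description.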

How the data were processed

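Whole-animal mRNA was measured in 3 tryptophan and 3 control libraries; per the labels' protocols, a TruSeq kit was used on total RNA. Per the file headers, the authors deposited FPKM, in 1 table for each library. Bowtie 0.12.2, StringTie and the build WBcel235 are named per the submitters' processing notes. The sources used here do not give the annotation release, filters, strand setting or further scaling. Gene symbols and 1-based coordinates come from Ensembl release 115 of the same build (46183 of 46589 identifiers matched).

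Depth was estimated from low FPKM times transcript length over 12496 genes with a single transcript. These fell within 0.2 steps of a whole multiple for 71.1% to 75.0% of low values. Part of that share follows from the width of the tolerance alone. Counted units are therefore given only as estimates, no counts were rebuilt for testing and no count model was used. FPKM with a mean of at least 1 were tested as log2(FPKM + 1), a scale that understates the change of low genes, in limma 3.58.1 (R 4.3.3), with group as the only term, eBayes with trend, two-sided, and Benjamini-Hochberg adjustment over 13511 genes (threshold 0.05). Paralog ratios used an exact permutation test. Likeness, ratios and figures used Python 3.11.15, numpy 2.4.6, pandas 2.3.3, statsmodels 0.14.6 and matplotlib 3.10.9. The fit was tested on simulated data, with the spread of each gene taken from libraries 2 and 3 of both groups. The median residual SD was 0.20 in the fit to those libraries and 0.64 over all 6. The simulation therefore does not show what changes the fit over 6 libraries can detect.

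The 10 genes, the other gene lists and the use of libraries 2 and 3 were chosen with earlier results of these data known. Named were all 10 members, from each other list those that passed or else up to 2 with the smallest p, and the 6 genes of most similar pattern. Alternatives tried were libraries 2 and 3 only, each library left out, a replicate block, other scalings (TPM, quantile, median), other filters (none, or a mean of 5 FPKM), other pseudocounts (0.1 and 0.5), and eBayes without trend or robust.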

Additional observations from a re-analysis of the deposited data

How the results depend on the processing

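No member passed the limma threshold under any of the 17 alternatives (lowest adjusted p 0.566, in libraries 2 and 3 of each group). The count of all genes that passed was 0 under 16 of them and 68 in libraries 2 and 3. There the log2 fold changes of oma-1 and cbd-1 turned to 0.011 and 0.072. All 10 members kept a negative value under every other alternative. The members' median of -1.12 ranged from -1.14 to -1.01 under the other scalings, pseudocounts, filters and eBayes settings. It ranged from -1.50 to -0.50 when 1 library was left out, with -0.88 without tryptophan library 1 and -0.50 without control library 1, and it was -0.19 without both.

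The count of members whose groups do not overlap ranged from 0 to 10 when 1 library was left out. It was 10 without tryptophan library 2, where 23.1% of all tested genes had groups that did not overlap, and 4 without control library 2, where 16.3% did. With 1 library left out, the group difference in the oma-1 to oma-2 log2 ratio (0.33 over 6 libraries) ranged from 0.15 to 0.45. The difference in the egg-1 to egg-2 log2 ratio ranged from -0.38 to 0.014 (0.014 without tryptophan library 1), and it was 0.0026 in libraries 2 and 3. That of cpg-1 to cpg-2 ranged from -0.032 (without control library 3) to 0.18, with -0.022 without tryptophan library 2. The cause was not tested.

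For libraries of the same number, deviations from the group means had correlations of -0.37, -0.30 and -0.34. Deviations within a group sum to 0 and library 1 of each group stood apart, so these values are not separate checks. They cannot show whether the numbers mark pairs. The main fit did not take the numbers as pairs. With a replicate block the members' median was -1.12 and 0 genes passed.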

Other observations

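The members are spread over 5 of the 6 chromosomes. Chromosome III holds 4 of the 10 (egg-1, egg-2, cpg-1 and cpg-2) and 15.7% of all tested genes, and the X chromosome holds 0 of them and 13.1% of tested genes. egg-2 and cpg-2 lie on the same strand with 41508 bases between them. In the annotation, 6 of the 10 genes have a 5′ untranslated region under 5 bases (cbd-1, egg-1, egg-2, cpg-1, cpg-2 and rme-2), and 7 have a single annotated transcript.

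For 8 members no other annotated gene overlaps the gene model. egg-1 shares 42 bases with B0244.9 on the opposite strand, a gene with 52.5, 11.6 and 16.3 FPKM in tryptophan libraries 1 to 3, against 0.992, 12.5 and 17.8 FPKM in control libraries 1 to 3. Its order across the libraries is the reverse of that of egg-1 at both extremes, tryptophan library 1 and control library 1.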
